A study of Mus musculus with 72 samples.

Results

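The miRNAs described here are 10 mature mouse miRNAs, of 1927 listed in the deposited count tables, that lie inside host genes: both arms of miR-339, miR-340, miR-186 and miR-342, together with miR-326-3p and miR-191-5p. They were chosen by their measured log2 fold changes for genotype or nerve crush in cortex or cerebellum, so their cortex and cerebellum contrasts are given as description, with no p, and support nothing. Small RNA libraries came from male mice: cortex and striatum of the left side, and cerebellum of the right. The 4 kinds of mice were Thap1+/- with a crushed right sciatic nerve, Thap1+/- naive, wild type with the crush, and wild type naive. The crush lasted 1 min, was made at 12 weeks of age, and tissue is labelled as 12 weeks after injury, also for naive mice. Of 72 labelled libraries, 71 were analysed, 6 in each of 11 groups and 5 in naive wild-type cortex. Thap1+/- mice are heterozygous for Thap1, and the labels name no promoter or cell type that limits the change. The Thap1 transcript is not read by a miRNA assay, so the genotype labels were not checked against it.

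An intronic miRNA is cut from the RNA of its host gene: the hairpin is released in the nucleus by Drosha, and Dicer then leaves a duplex whose 5p or 3p strand enters an Argonaute protein. The seed near the 5′ end of the strand pairs with messenger RNAs and lowers their stability or translation, so the 5p and 3p arms of a hairpin address different transcripts. Thap1 encodes a zinc-finger transcription factor, and heterozygous loss-of-function variants of its human counterpart cause the dystonia DYT6.

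The sequences are shown because the 10 strands differ widely in base composition and each has a seed of its own among them. They are RefSeq mature miRNAs on GRCm38.p6, 5′ to 3′, with the seed (bases 2 to 8) in capitals. The last line is miR-330-5p, which carries the seed of miR-326-3p. Among tested miRNAs with a matched sequence, no other shared a seed with a member.
mmu-miR-339-5p: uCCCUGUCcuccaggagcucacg
mmu-miR-339-3p: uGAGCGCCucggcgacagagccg
mmu-miR-340-5p: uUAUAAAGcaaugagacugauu
mmu-miR-340-3p: uCCGUCUCaguuacuuuauagc
mmu-miR-186-5p: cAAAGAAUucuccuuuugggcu
mmu-miR-186-3p: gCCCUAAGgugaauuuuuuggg
mmu-miR-342-5p: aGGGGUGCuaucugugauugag
mmu-miR-342-3p: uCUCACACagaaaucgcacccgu
mmu-miR-326-3p: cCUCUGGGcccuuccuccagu
mmu-miR-191-5p: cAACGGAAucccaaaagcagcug
mmu-miR-330-5p: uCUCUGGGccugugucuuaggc

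miR-339 lies on the minus strand, with its 5p arm at chr5:139369708-139369730 and its 3p arm at chr5:139369673-139369695, in the protein-coding gene 3110082I17Rik. miR-340 lies in Rnf130, which encodes a RING-finger ubiquitin ligase, with arms at chr11:50069720-50069741 and chr11:50069762-50069783 on the plus strand. miR-186 lies in Zranb2, a zinc-finger splicing factor gene, at chr3:157544285-157544306 and chr3:157544324-157544345 on the plus strand. miR-342 lies in Evl, which encodes an Ena/VASP-like regulator of actin filaments, at chr12:108658638-108658659 and chr12:108658680-108658702 on the plus strand. miR-326-3p lies at chr7:99552328-99552348 on the plus strand in Arrb1, the gene of beta-arrestin 1. These 5 hairpins lie outside the exons of coding transcripts of their hosts in GENCODE M21. miR-191-5p lies at chr9:108568325-108568347 on the plus strand, in Dalrd3 in RefSeq and in the lincRNA 4833445I07Rik in GENCODE M21, beside miR-425. Of the 6 hosts, 5 had a RefSeq promoter window (250 bases before to 50 after the start), 6 windows in all. The core of the THAP1 recognition sequence, TNNGGCA on either strand, was in 0 of these 6 windows and in 40.0% of 32851 promoter windows, which says only that these letters are not in those windows.

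The members span the range of base composition. miR-340-5p had 27.3% G and C, and 0.375% of 534 tested miRNAs had less. miR-339-3p had 73.9%, with 97.9% of tested miRNAs lower, and miR-326-3p and miR-339-5p had 66.7% and 65.2%. miR-186-5p had 40.9%, and miR-342-5p, miR-342-3p and miR-191-5p were near the median of 50%.

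Library totals ran from 7479448 to 12589140 counts. The 4 miRNAs fixed as high in cerebellum summed to 24937 to 32884 CPM (counts scaled to a common library total) in naive wild-type cerebellum, against 1574 to 2530 in striatum and 7944 to 9942 in cortex. The list was fixed with earlier results of these data known, so it is no independent check of the region labels. For each library the root-mean-square log2 deviation from the region's median level was taken over tested miRNAs averaging at least 10 CPM (288 in cortex). In cortex it ran from 0.153 to 0.293 in Thap1+/- crush, 0.186 to 0.861 in Thap1+/- naive, 0.159 to 0.351 in wild-type crush and 0.376 to 0.647 in wild-type naive libraries. Naive wild type had the highest group median, 0.513, but CX_DYT6KO_naive_16 (0.861), CX_DYT6KO_naive_63 (0.605) and CX_DYT6KO_naive_18 (0.468) lay within or above its range. The let-7 family with miR-98 took 44.0 to 51.9% of counts in Thap1+/- crush, 46.1 to 56.1% in Thap1+/- naive, 41.4 to 48.6% in wild-type crush and 51.5 to 56.6% in wild-type naive cortex. The library farthest from its region's median was STR_DYT6KO_crush_8 in striatum (1.17) and CB_wt_crush_3 in cerebellum (0.755), followed there by CB_DYT6KO_crush_47 (0.692), CB_DYT6KO_crush_46 (0.667) and CB_DYT6KO_crush_86 (0.631). CB_DYT6KO_crush_47 and CB_DYT6KO_crush_86 had the lowest scaling factors, 0.652 and 0.715. Their names give cortex as CX, striatum as STR, cerebellum as CB and Thap1+/- as DYT6KO. The tables hold no count of 1 (0 of 136817 values), so a listed 0 may stand for a small count, which bears on miR-186-3p.

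In cortex, 5 of the 10 members were higher after crush than in naive mice within wild type, and the same 5 were higher in naive Thap1+/- than in naive wild-type mice: miR-339-5p, miR-326-3p, miR-340-5p, miR-186-5p and miR-186-3p. None was called lower in either in the fit of all 4 groups. These counts compare with 35% of 549 miRNAs called for crush in wild type and 20.2% called for genotype in naive mice, at an adjusted p under 0.05 in edgeR's quasi-likelihood test. Both contrasts share the naive wild-type libraries, which were the low group for all 5, and both were used to choose the members. With only the 2 groups of the contrast in the fit, genotype in naive mice gave 0 called members, as it did over all miRNAs, and with 1 library left out it gave as few as 3 members (without CX_DYT6KO_naive_63, CX_DYT6KO_naive_76 or CX_wt_naive_67). Crush in wild type gave 3 without CX_wt_naive_118 or CX_wt_naive_124. Calls over all miRNAs with 1 library left out are not given here. Tissue libraries cannot tell fewer cells of a type from less RNA per cell.

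miR-339-5p, a strand reported to repress the beta-secretase gene BACE1 in human cells, had 10.6, 15.04 and 18.6 CPM (lowest, median, highest) in Thap1+/- crush cortex, 9.56, 15.8 and 19.0 in Thap1+/- naive, and 14.9, 19.1 and 23.9 in wild-type crush. The 5 naive wild-type libraries had 5.02, 5.42, 6.93, 9.18 and 10.2 CPM. Every wild-type crush library was above every naive wild-type library, and 5 of 6 Thap1+/- naive libraries were, the exception being CX_DYT6KO_naive_18. The log2 fold change was 1.37 ± 0.20 (SE) for crush in wild type and 1.06 ± 0.20 for genotype in naive mice, against -0.05 ± 0.18 for crush in Thap1+/- and -0.36 ± 0.18 for genotype after crush. Its partner arm miR-339-3p had a median of 35.9 CPM in Thap1+/- crush, 38.8 in Thap1+/- naive, 37.2 in wild-type crush and 34.2 in wild-type naive cortex. That arm was not called, with 0.14 ± 0.12 for crush in wild type and 0.23 ± 0.12 for genotype in naive mice.

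miR-326-3p, known from mouse T cells as a promoter of Th17 differentiation through Ets1, had 8.39, 10.1 and 11.9 CPM in Thap1+/- crush cortex, 9.31, 15.3 and 18.2 in Thap1+/- naive and 9.28, 10.9 and 16.7 in wild-type crush. The naive wild-type libraries had 6.93, 8.16, 8.92, 9.28 and 10.2 CPM. The Thap1+/- naive group was the high one, with 5 of 6 libraries above all naive wild-type libraries, while wild-type crush overlapped naive wild type with 3 of 6 above. The log2 fold change was 0.76 ± 0.18 for genotype in naive mice and 0.49 ± 0.18 for crush in wild type. The crush call was made in 10 of 18 alternatives, at 0.36 to 0.57, and was lost with median-of-ratios scaling, with DESeq2 and without any of CX_wt_crush_2, CX_wt_crush_14, CX_wt_naive_31, CX_wt_naive_96, CX_wt_naive_118 or CX_wt_naive_124. miR-330-5p, which has the same seed and lies in Eml2, had -0.03 ± 0.09 and -0.08 ± 0.09 in these contrasts and was not called.

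miR-340-5p had 970, 1078 and 1241 CPM in Thap1+/- crush cortex, 670, 1056 and 1201 in Thap1+/- naive and 801, 1010 and 1376 in wild-type crush. The naive wild-type libraries had 616, 647, 710, 800 and 859 CPM. In both contrasts 5 of 6 libraries lay above all naive wild-type libraries, with log2 fold changes of 0.51 ± 0.14 for crush in wild type and 0.48 ± 0.14 for genotype in naive mice. The genotype call was lost without any of CX_DYT6KO_naive_63, CX_DYT6KO_naive_76, CX_wt_naive_31 or CX_wt_naive_67. The minor arm miR-340-3p, at group medians of 4.33 to 5.40 CPM, was not called and had -0.29 ± 0.17 and -0.04 ± 0.17.

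miR-186-5p, reported to repress Bace1 in mouse neurons, had 136, 157 and 174 CPM in Thap1+/- crush cortex, 105, 138.9 and 145 in Thap1+/- naive and 132.5, 147 and 159 in wild-type crush. The naive wild-type libraries had 94.1, 95.3, 104, 111 and 116 CPM. All 6 wild-type crush libraries were above them, as were 5 of 6 Thap1+/- naive libraries, and the log2 fold changes were 0.50 ± 0.09 for crush and 0.37 ± 0.09 for genotype. Its scarce partner miR-186-3p was listed at 0, 0, 3, 6, 10 and 11 counts in Thap1+/- crush, 5, 8, 10, 11, 11 and 14 in Thap1+/- naive, 5, 6, 7, 9, 10 and 12 in wild-type crush and 0, 0, 0, 3 and 5 in wild-type naive cortex. Its fitted log2 fold changes of 2.14 ± 0.77 and 2.36 ± 0.76 rest on 8 counts in the naive wild-type group and depend on how zeros are treated. Each was called in 9 of 16 alternatives. Both were lost without a filter and without any of CX_wt_naive_67, CX_wt_naive_118 or CX_wt_naive_124, the crush call also without CX_wt_crush_3, CX_wt_crush_11 or CX_wt_crush_139, and the genotype call also without CX_DYT6KO_naive_63, CX_DYT6KO_naive_76 or CX_DYT6KO_naive_135.

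miR-342 and miR-191-5p were not called in cortex in the fit of all 4 groups. miR-342-5p had 34.4, 44.1 and 57.8 CPM in Thap1+/- crush, 12.8, 34.3 and 67.6 in Thap1+/- naive, 32.99, 42.3 and 50.1 in wild-type crush, and 41.1, 51.5, 55.7, 60.2 and 70.4 in wild-type naive cortex. For this arm naive wild type was the high group, with -0.45 ± 0.24 for crush in wild type and -0.60 ± 0.24 for genotype in naive mice. Without CX_DYT6KO_naive_16 and CX_DYT6KO_naive_18 both passed the threshold, at -0.45 ± 0.14 and -0.67 ± 0.15. miR-342-5p was also called lower for genotype in naive mice by DESeq2 and without CX_DYT6KO_naive_18 alone. For crush in wild type it was called lower with 2 groups alone. miR-342-3p, with group medians of 1111 to 1344 CPM, had 0.05 ± 0.20 and -0.32 ± 0.20. miR-191-5p, often used as a reference in miRNA assays, had group medians of 6335 to 6830 CPM, with 0.00 ± 0.11 and -0.13 ± 0.11. Of the other strands of its cluster, miR-425-3p was called for crush in wild type at 0.30 ± 0.10, while miR-191-3p and miR-425-5p were not.

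**Figure D1:**
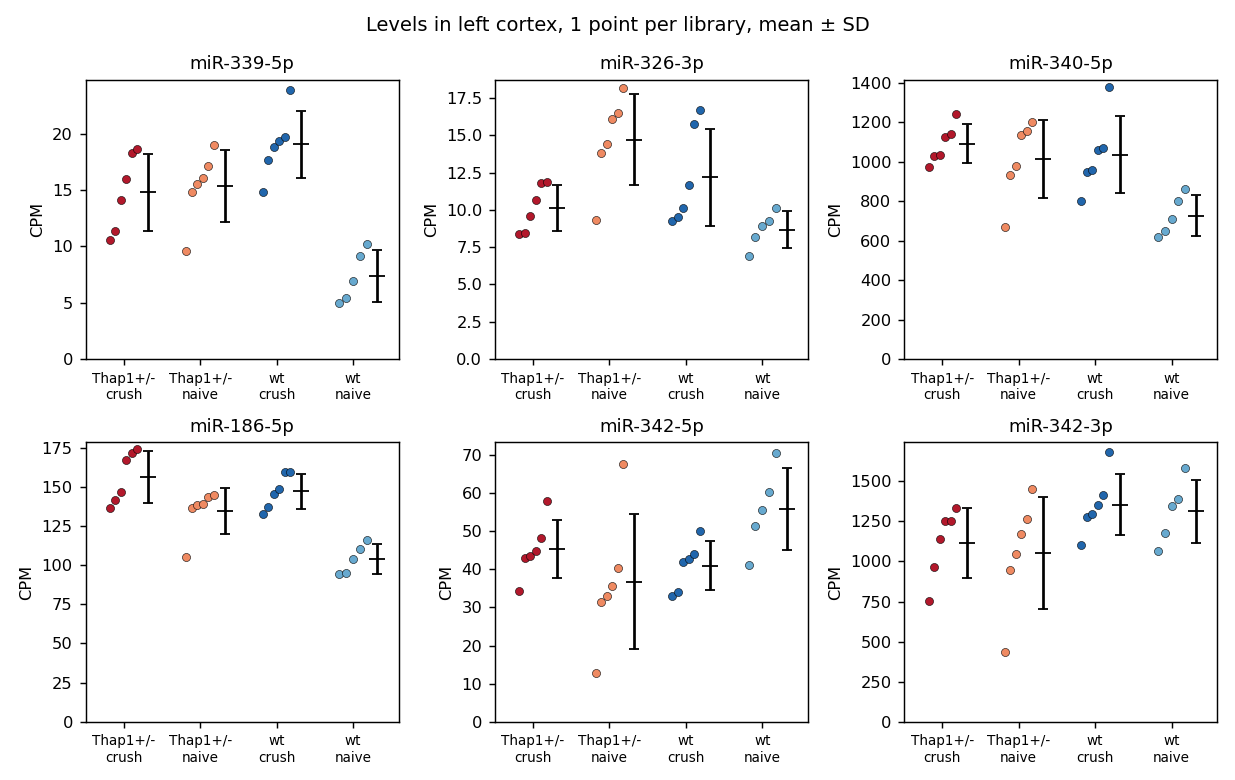
Cortex levels in CPM of 6 members by library, one panel per miRNA, with Thap1+/- crush, Thap1+/- naive, wild-type crush and wild-type naive from left to right, each point a library and the bar the group mean with SD (n = 6, and 5 in wild-type naive). For miR-339-5p the naive wild-type points, 5.02 to 10.2 CPM, lie below all wild-type crush points.

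The crush effect in cortex differed between the genotypes for 3 of 10 members, all lower in Thap1+/-, beside 13.5% of all 549 miRNAs. The difference, crush effect in Thap1+/- minus that in wild type, was -1.42 ± 0.27 for miR-339-5p, -1.02 ± 0.24 for miR-326-3p and -3.06 ± 0.98 for miR-186-3p. The first 2 were called in all 29 alternatives and miR-186-3p in 13 of 27, with the call lost without a filter and without 13 libraries in turn. miR-340-5p had -0.40 ± 0.19 and miR-186-5p -0.29 ± 0.13, neither called. Crush within Thap1+/- gave 0 of 10 members called by edgeR's quasi-likelihood test (2 at an unadjusted p under 0.05, and 1 called by DESeq2), beside 0.729% of all miRNAs. Genotype after crush gave 0 of 10 (0 at an unadjusted p under 0.05, and 0 by DESeq2), beside 0% of all. The member median log2 fold change was 0.32 for crush in wild type and 0.30 for genotype in naive mice, beside 0.06 and -0.01 over all tested miRNAs, and 0.00 and -0.06 in the other 2 contrasts, beside 0.01 and -0.04.

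Base composition moved with the cortex values. Over 469 miRNAs the log2 fold change and the G and C share had a Pearson r of -0.15 for crush in wild type and -0.20 for genotype in naive mice, as a description over miRNAs that share libraries. With a trend on G and C share as an offset, miR-340-5p had 0.11 ± 0.06 for crush and 0.09 ± 0.06 for genotype, neither called. miR-186-5p then had 0.33 ± 0.07 and 0.23 ± 0.07, miR-339-5p 1.39 ± 0.21 and 1.16 ± 0.21, and miR-326-3p 0.50 ± 0.18 and 0.87 ± 0.18, all still called. miR-340-3p became called for crush in wild type at -0.47 ± 0.17.

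**Figure D2:**
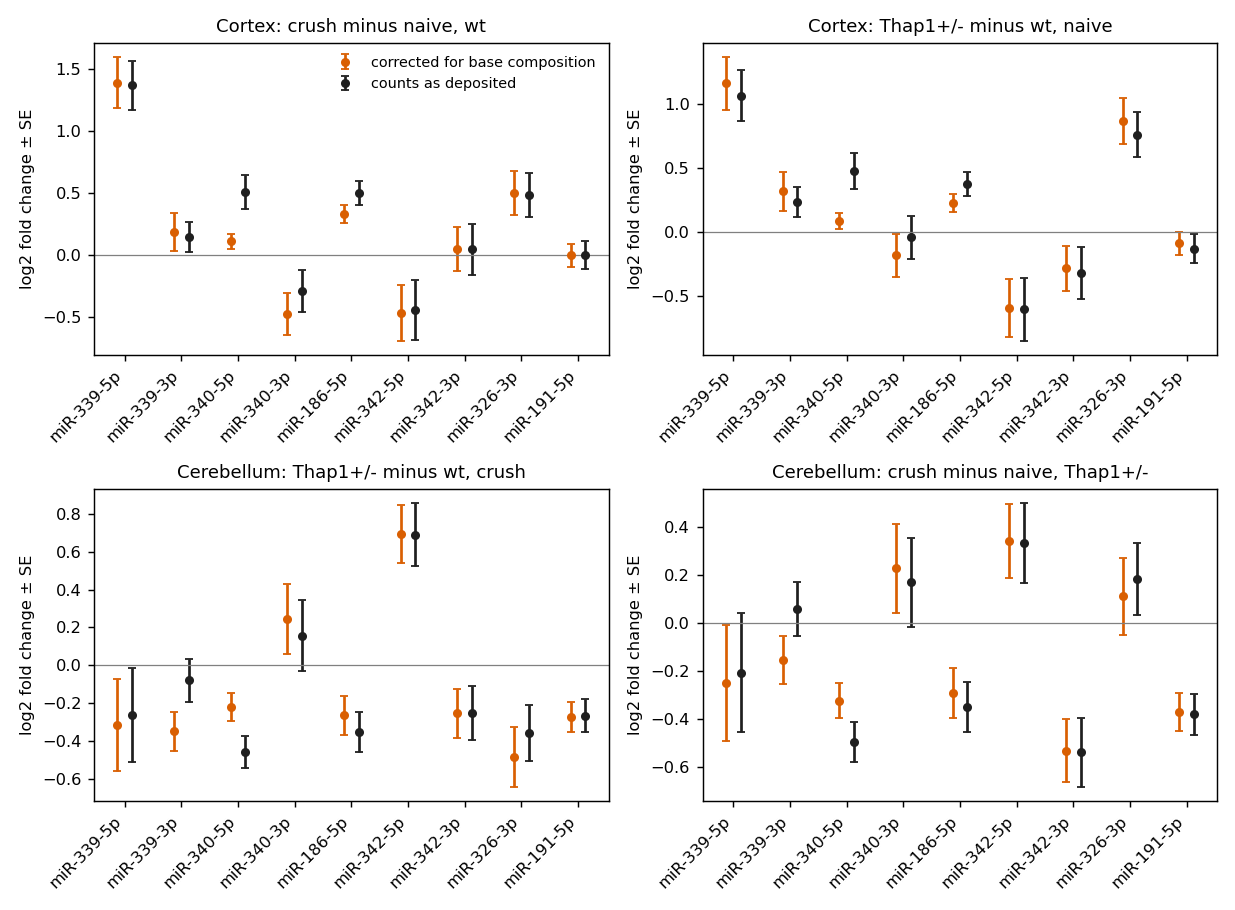
Log2 fold change with SE of 9 members (miR-186-3p is not drawn), with the base-composition offset (orange) and without it (black, labelled counts as deposited). The contrasts are crush in wild type and genotype in naive mice for cortex, and genotype after crush and crush in Thap1+/- for cerebellum. The cortex difference of the crush effects is not drawn. For crush in wild-type cortex miR-340-5p is at 0.11 with the offset and at 0.51 without it.

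Markers of leukocytes and microglia also moved with the naive wild-type cortex group. The 5 miRNAs of that list, all detected, summed to 261 to 338.1 CPM in Thap1+/- crush, 267 to 366 in Thap1+/- naive, 298 to 391 in wild-type crush and 244 to 288 in wild-type naive cortex. Of the 5, miR-155-5p went the other way, with 20.4 ± 2.54 CPM in wild-type crush and 29.5 ± 4.86 in wild-type naive cortex (SD, n = 6 and 5). The part of these cells, of base composition beyond the offset, and of the let-7 share in the members' values was not tested.

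In cerebellum, 4 of the 9 members tested were called for genotype after crush and 4 for crush in Thap1+/-, and 0 in the other contrasts, the difference of the crush effects included. Against wild-type crush mice, Thap1+/- crush cerebellum was lower in miR-340-5p, miR-186-5p and miR-191-5p and higher in miR-342-5p, beside 13.4% of 552 miRNAs called. Against naive Thap1+/- mice it was lower in miR-340-5p, miR-186-5p, miR-191-5p and miR-342-3p, beside 5.25% called. Genotype after crush gave 2 called members with median-of-ratios scaling, where calls over all miRNAs were 26 higher and 26 lower, against 24 and 50. It also gave 2 without any of CB_DYT6KO_crush_46, CB_DYT6KO_crush_47, CB_DYT6KO_crush_86, CB_wt_crush_113, CB_wt_crush_139, CB_wt_crush_2 or CB_wt_crush_3. Crush in Thap1+/- gave 1 without CB_DYT6KO_crush_47 or CB_DYT6KO_naive_135, and 2 without CB_DYT6KO_crush_86, CB_DYT6KO_naive_18, CB_DYT6KO_naive_63 or CB_DYT6KO_naive_76. For these left-out libraries too, calls over all miRNAs are not given here. Both contrasts share the Thap1+/- crush libraries and were used to choose the members, and miR-186-3p did not pass the filter on low counts.

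miR-340-5p had 618, 705 and 761 CPM in Thap1+/- crush cerebellum, 872, 992 and 1080 in Thap1+/- naive, 854, 933 and 1074 in wild-type crush, and 975, 1088 and 1270 in wild-type naive. The 6 Thap1+/- crush libraries lay below all others, with -0.46 ± 0.08 for genotype after crush and -0.50 ± 0.08 for crush in Thap1+/-. The cortex rises were in other contrasts, crush in wild type and genotype in naive mice, where naive wild type was the low group. In cortex miR-340-5p was not called for genotype after crush or for crush in Thap1+/-, at 0.08 and 0.07 in the authors' deposited values. With the base-composition offset the cerebellum values became -0.22 ± 0.07, not called, and -0.32 ± 0.07, still called. Over 470 miRNAs the log2 fold change and the G and C share had an r of 0.28 and 0.19 in these contrasts.

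miR-186-5p had 60.0, 82.8 and 101 CPM in Thap1+/- crush cerebellum, 92.1, 105 and 114 in Thap1+/- naive, 97.1, 105 and 112 in wild-type crush, and 108, 116 and 136 in wild-type naive. The Thap1+/- crush group was the low one, with 5 of 6 libraries below all wild-type crush libraries, and the log2 fold change was -0.35 ± 0.10 in both contrasts. With the offset it was -0.27 ± 0.10 and -0.29 ± 0.10, no longer called. These calls were made in 4 of 19 and 3 of 19 alternatives: both were lost with median-of-ratios scaling, without a filter, without let-7 and miR-98 and with 2 groups alone. With 1 library left out, the call for genotype after crush stood only without CB_DYT6KO_crush_117, CB_DYT6KO_crush_133 or CB_wt_crush_14, and that for crush in Thap1+/- only without CB_DYT6KO_crush_117 or CB_DYT6KO_crush_133. miR-191-5p had 4167, 4623 and 5542 CPM in Thap1+/- crush, 5759, 6082 and 6374 in Thap1+/- naive, 4679, 5695 and 6539 in wild-type crush, and 4720, 5351 and 5992 in wild-type naive cerebellum. Thap1+/- crush lay wholly below Thap1+/- naive and overlapped both wild-type groups, with -0.27 ± 0.09 for genotype after crush and -0.38 ± 0.09 for crush in Thap1+/-. The call for genotype after crush was made in 4 of 19 alternatives: it was lost with median-of-ratios scaling, without a filter, without let-7 and miR-98 and with 2 groups alone, and with 1 library left out it stood only without CB_DYT6KO_crush_8 or CB_wt_crush_11. That for crush in Thap1+/- was lost without CB_DYT6KO_crush_47 or CB_DYT6KO_naive_135.

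Of the arms of miR-342 in Thap1+/- crush cerebellum, the 5p arm was called higher against wild-type crush only and the 3p arm lower against Thap1+/- naive only. miR-342-5p, which represses Akt1 in mouse macrophages, had 27.97, 33.3 and 60.9 CPM in Thap1+/- crush, 22.7, 31.4 and 33.5 in Thap1+/- naive, 16.7, 23.1 and 29.1 in wild-type crush, and 19.5, 23.7 and 27.7 in wild-type naive. It was highest in Thap1+/- crush, with 0.69 ± 0.17 against wild-type crush (5 of 6 libraries above all) and 0.33 ± 0.17, not called, against Thap1+/- naive. Without CB_DYT6KO_crush_47 and CB_DYT6KO_crush_86, the libraries with the lowest scaling factors, the value against wild-type crush was 0.42 and not called, and it was not called with 2 groups alone either. miR-342-3p had 329, 372 and 414 CPM in Thap1+/- crush, 478, 552 and 590 in Thap1+/- naive, 303, 444 and 631 in wild-type crush, and 403, 470 and 559 in wild-type naive. Thap1+/- crush lay wholly below Thap1+/- naive at -0.54 ± 0.14, and overlapped wild-type crush at -0.25 ± 0.14, not called. The call against Thap1+/- naive was made in 11 of 19 alternatives and was lost without a filter and without any of CB_DYT6KO_crush_47, CB_DYT6KO_crush_86, CB_DYT6KO_naive_18, CB_DYT6KO_naive_63, CB_DYT6KO_naive_76 or CB_DYT6KO_naive_135.

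miR-326-3p had 4.28, 5.94 and 7.11 CPM in Thap1+/- crush and 5.59, 6.93 and 9.90 in wild-type crush cerebellum, at -0.36 ± 0.15, and was not called. miR-339-5p at -0.26 ± 0.25, miR-339-3p at -0.08 ± 0.11 and miR-340-3p at 0.16 ± 0.19 were also not called for genotype after crush. miR-339-3p passed the threshold there with the offset, at -0.35 ± 0.10.

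**Figure D3:**
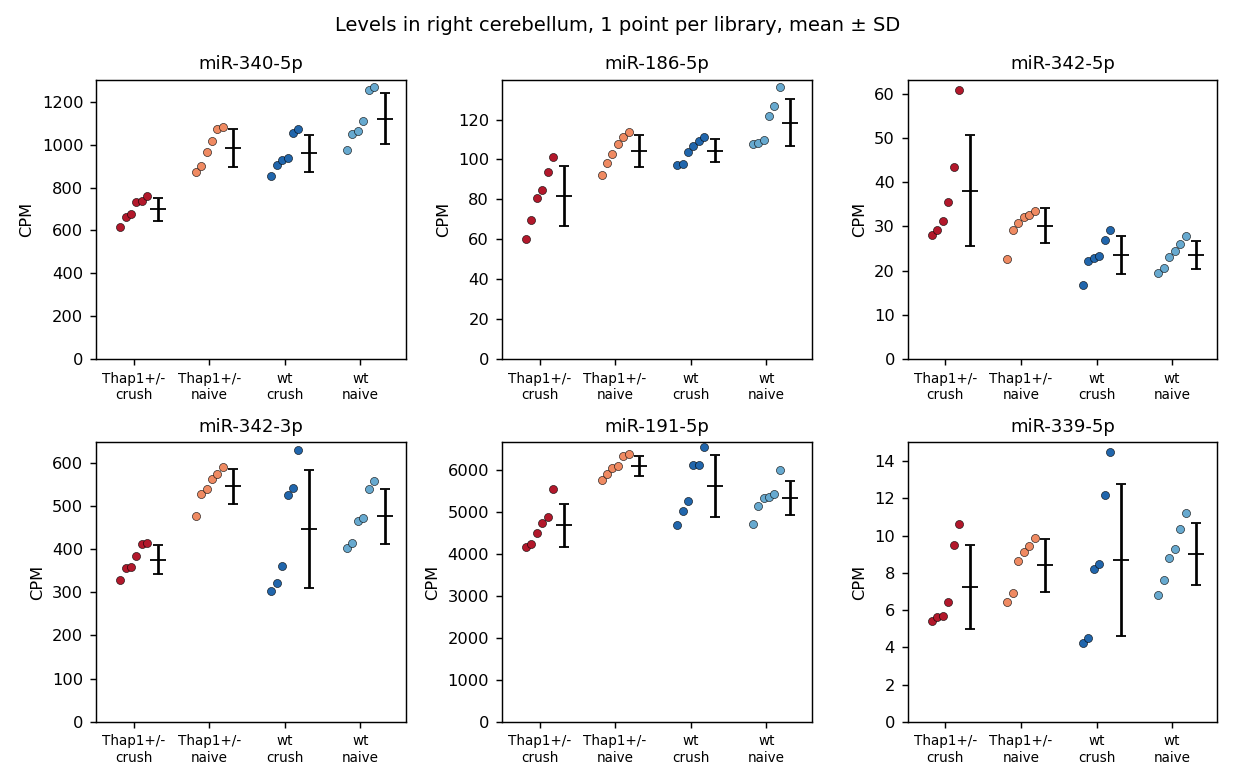
Cerebellum levels in CPM of 6 members by library, one panel per miRNA, with Thap1+/- crush, Thap1+/- naive, wild-type crush and wild-type naive from left to right, each point a library and the bar the group mean with SD (n = 6 each). The 6 Thap1+/- crush points of miR-340-5p, 618 to 761 CPM, lie below those of the other groups.

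Genotype in naive mice, crush in wild type and the difference of the crush effects gave 0 of 9 members called by edgeR's quasi-likelihood test (4, 2 and 3 at an unadjusted p under 0.05, and 0, 0 and 0 by DESeq2), beside 0% of all miRNAs in each. The member median was -0.26 for genotype after crush and -0.21 for crush in Thap1+/-, beside 0.01 and 0.01 over all tested miRNAs. The let-7 share moved with the Thap1+/- crush cerebellum, at 61.2 to 75.7% of counts against 59.3 to 64.3% in Thap1+/- naive and 57.3 to 64.7% in wild-type crush. The 6 forebrain-high miRNAs summed to 14814 to 17962 CPM there, against 19164 to 20390 in Thap1+/- naive and 15533 to 21566 in wild-type crush. The part of either in the members' values was not tested. Without CB_DYT6KO_crush_47 and CB_DYT6KO_crush_86 1 member stayed called for genotype after crush and for crush in Thap1+/-, miR-340-5p at -0.40 ± 0.09 and -0.44 ± 0.09. Calls over all miRNAs were then 1 higher and 9 lower for genotype after crush, and 0 higher and 4 lower for crush in Thap1+/-.

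Striatum was the region whose contrasts did not serve to choose the members, and there none of the 10 was called. In edgeR's quasi-likelihood test 0 of 10 passed for genotype in naive mice, beside 0% of 575 miRNAs, 0 for genotype after crush, beside 0%, and 0 for crush in wild type, beside 0.174%. Crush in Thap1+/- and the difference of the crush effects also gave 0, beside 0% each. At an unadjusted p under 0.05 there were 0, 1, 1, 2 and 1 members in these 5 contrasts, and DESeq2 called 0, 1, 0, 1 and 0. The member medians lay between -0.03 and 0.02, beside -0.02 to 0.02 over all tested miRNAs.

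miR-186-5p came closest. It had 127, 143 and 160 CPM in Thap1+/- crush striatum, 164, 172 and 189 in Thap1+/- naive, 135, 152.996 and 184 in wild-type crush, and 164, 178 and 197 in wild-type naive. All 6 Thap1+/- crush libraries were below all 6 naive Thap1+/- libraries, while the wild-type groups overlapped. The log2 fold change for crush was -0.28 ± 0.08 in Thap1+/- (edgeR adjusted p = 0.257) and -0.21 ± 0.08 in wild type (adjusted p = 0.503). DESeq2 on the same counts gave -0.26 ± 0.08 in Thap1+/- with an adjusted p = 0.026, and the authors' deposited table gives -0.24 with an adjusted p of 0.0256. The crush effects of the genotypes differed by -0.07 ± 0.11 (edgeR adjusted p = 0.974).

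miR-186-3p was listed at 0, 0, 0, 5, 7 and 8 counts in Thap1+/- crush striatum, 8, 8, 10, 10, 10 and 11 in Thap1+/- naive, 11, 11, 12, 14, 14 and 14 in wild-type crush and 8, 9, 11, 13, 13 and 14 in wild-type naive. All 6 Thap1+/- crush libraries were below all 6 wild-type crush libraries. The log2 fold change was -1.72 ± 0.54 for genotype after crush (edgeR adjusted p = 0.700, DESeq2 adjusted p = 0.0233) and -1.36 ± 0.55 for crush in Thap1+/- (edgeR adjusted p = 0.453). In cortex the same arm was lowest in the naive wild-type group, not in Thap1+/- crush.

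The members that led in cortex had small changes in striatum. miR-339-5p had 9.24, 13.9 and 39.7 CPM in Thap1+/- crush, 14.1, 17.4 and 24.1 in Thap1+/- naive, 11.5, 12.9 and 20.9 in wild-type crush, and 15.7, 18.2 and 20.3 in wild-type naive. The groups overlapped, with -0.32 ± 0.24 for crush in wild type (edgeR adjusted p = 0.864) and -0.02 ± 0.24 for genotype in naive mice (adjusted p = 0.988). miR-340-5p had -0.25 ± 0.19 (adjusted p = 0.871) and -0.05 ± 0.19 (adjusted p = 0.988) in these contrasts. miR-326-3p had -0.03 ± 0.19 (adjusted p = 0.989) and -0.03 ± 0.19 (adjusted p = 0.988). For miR-339-5p and miR-340-5p the sign for crush in wild type was opposite to that in cortex, and the difference between regions was not tested.

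Library STR_DYT6KO_crush_8 had the lowest miR-342-5p (9.91 CPM), miR-342-3p (380) and miR-191-5p (2999) and the highest miR-340-5p (1819) and miR-339-3p (67.1) of its group. CX_DYT6KO_naive_16, the cortex library farthest from its region's median, likewise had the lowest miR-342-5p (12.8 CPM), miR-342-3p (434) and miR-191-5p (4017) and the highest miR-340-5p (1201) and miR-339-3p (57.3) of its group. Leaving out the striatum library gave 0 called members in every striatum contrast.

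Levels by brain region were compared in the naive wild-type libraries, on a scale common to the 3 regions. RNA came from the miRNeasy mini kit for cerebellum and the micro kit for cortex and striatum, so kit and cerebellum cannot be told apart. The contrasts against cortex share the naive wild-type cortex libraries with the choice of members and are given without p. Cerebellum against striatum shares no library with the contrasts in which members were called.

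Between cerebellum and striatum, 6 of 10 members differed, 3 higher and 3 lower, beside 68.4% of 579 miRNAs. miR-342-3p was lower in cerebellum, at 496, 638 and 711 CPM (lowest, median, highest) against 1421, 1729 and 2143 CPM in striatum. The regions did not overlap, and the log2 fold change was -1.54 ± 0.12 (edgeR adjusted p = 6.0e-10). miR-342-5p was also lower, at 24.0, 31.4 and 35.4 CPM in cerebellum against 42.9, 51.7 and 69.0 in striatum, with no overlap and -0.85 ± 0.13 (edgeR adjusted p = 1.1e-05).

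miR-340-5p was higher in cerebellum, at 1284, 1467 and 1676 CPM against 674, 870 and 1042 CPM in striatum. The regions did not overlap, at 0.72 ± 0.12 (edgeR adjusted p = 2.4e-05), and the minor arm miR-340-3p followed at 0.64 ± 0.18 (adjusted p = 0.00346). miR-339-5p was lower at -0.39 ± 0.15 (edgeR adjusted p = 0.0287) and miR-339-3p higher at 0.21 ± 0.08 (adjusted p = 0.0293), each with overlapping regions. With median-of-ratios scaling miR-339-5p was not called, at -0.27 ± 0.15 (edgeR adjusted p = 0.127), nor was it with DESeq2, with all libraries in 1 fit or without STR_wt_naive_67, CB_wt_naive_31 or CB_wt_naive_136. miR-339-3p was called in 10 of 18 alternatives and lost its call without a filter, with all libraries in 1 fit and without any of STR_wt_naive_31, STR_wt_naive_96, STR_wt_naive_118, CB_wt_naive_67, CB_wt_naive_96 or CB_wt_naive_118. miR-186-5p averaged 154 ± 13.8 CPM in cerebellum and 149.03 ± 11.9 CPM in striatum (SD, n = 6 each), at 0.02 ± 0.08 (edgeR adjusted p = 0.854). miR-191-5p at -0.06 ± 0.05, miR-326-3p at -0.17 ± 0.14 and miR-186-3p at 0.21 ± 0.47 were not called either. miR-330-5p, with the seed of miR-326-3p, was lower in cerebellum at -0.52 ± 0.09 (edgeR adjusted p = 3.9e-05).

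Against cortex, 8 of 10 members were called in striatum, 7 higher and 1 lower, beside 54.6% of all miRNAs, and 7 in cerebellum, 5 higher and 2 lower, beside 68.6%. With median-of-ratios scaling, which moved the median of all miRNAs by -0.17 for striatum against cortex, that split became 4 higher and 2 lower, with miR-340-5p, miR-326-3p and miR-191-5p no longer called and miR-339-3p called lower. Over all miRNAs the split was then 158 higher and 147 lower, against 207 and 109. miR-339-5p averaged 11.8 ± 2.41 CPM in cerebellum, 15.1 ± 1.28 in striatum and 6.76 ± 2.06 in cortex (SD, n = 6, 6 and 5). On the same scale the other cortex groups averaged 13.9 ± 3.21 in Thap1+/- crush, 14.7 ± 3.09 in Thap1+/- naive and 17.9 ± 2.61 in wild-type crush, so the low cortex level is that of the naive wild-type libraries. miR-186-5p averaged 154 ± 13.8 CPM in cerebellum, 149.03 ± 11.9 in striatum and 95.6 ± 7.99 in cortex, where the other cortex groups averaged 129 to 147. miR-342-3p averaged 621 ± 82.1 CPM in cerebellum, 1766 ± 295 in striatum and 1206 ± 167 in cortex.

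**Figure D4:**
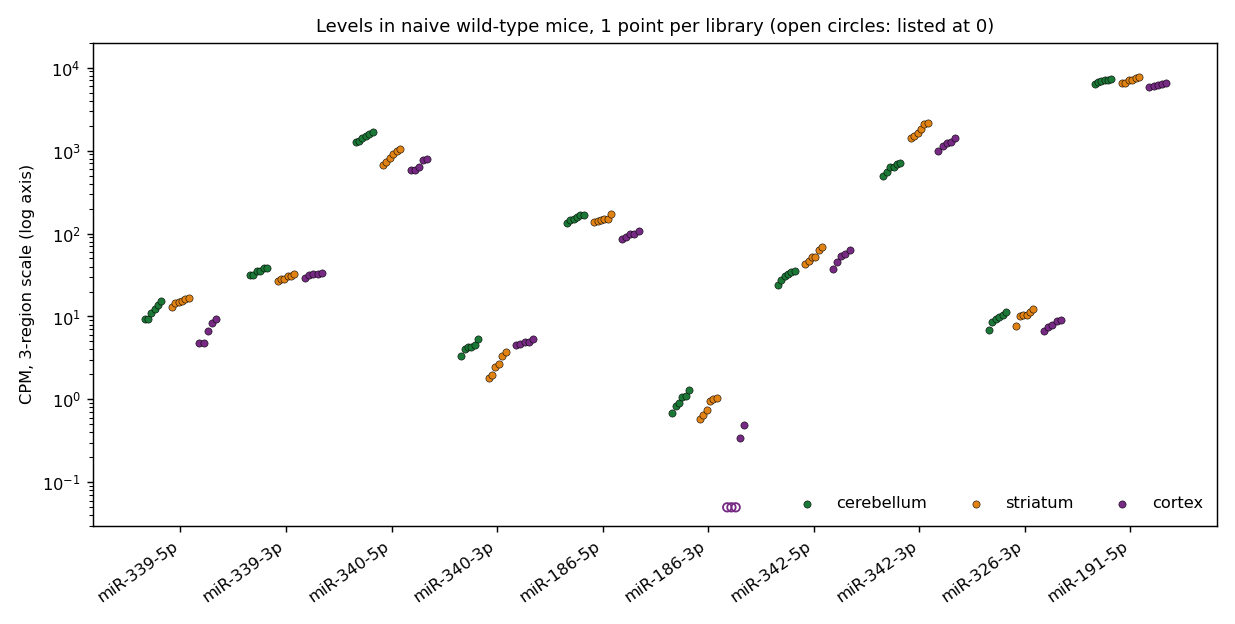
Levels in CPM (log axis), on a scale common to the regions, of the 10 members in naive wild-type libraries of cerebellum, striatum and cortex, from left to right, each point a library (n = 6, 6 and 5). Open circles mark the 3 cortex libraries listed at 0 for miR-186-3p. miR-342-3p averages 621 CPM in cerebellum against 1766 in striatum, and miR-340-5p 1462 against 862.

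Across all 12 groups on the common scale, miR-340-5p averaged highest in naive wild-type cerebellum (1462 ± 150.6 CPM) and lowest in naive wild-type cortex (669 ± 98.3), and the second lowest, wild-type crush striatum (722 ± 130), was within the spread of the lowest. miR-339-5p averaged highest in wild-type crush cortex (17.9 ± 2.61) and lowest in naive wild-type cortex (6.76 ± 2.06), the next lowest being Thap1+/- crush cerebellum (9.28 ± 3.38), within the spread. miR-186-5p averaged 154 ± 13.8 CPM at its highest in naive wild-type cerebellum and 95.6 ± 7.99 at its lowest in naive wild-type cortex, with Thap1+/- crush cerebellum next at 105 ± 24.8. miR-342-5p averaged highest in wild-type crush striatum (58.3 ± 8.15) and lowest in wild-type crush cerebellum (30.5 ± 6.01), which naive wild-type cerebellum matched within its spread (30.7 ± 4.22). miR-342-3p ran from 1766 ± 295 in naive wild-type striatum to 476 ± 42.7 in Thap1+/- crush cerebellum. miR-326-3p ran from 14.1 ± 2.96 in Thap1+/- naive cortex to 6.73 ± 0.871 in Thap1+/- naive cerebellum. miR-191-5p had the narrowest span of these strands as a ratio, from 7885 ± 434 in Thap1+/- naive cerebellum to 5887 ± 1138 in Thap1+/- naive cortex. miR-339-3p ran from 41.8 to 28.7 CPM, and the minor arm miR-340-3p from 4.92 to 2.68 CPM.

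The ratio of the arms within a library needs no scaling between libraries, although the library chemistry may favour some strands, so the ratio is not one of molecules. In naive wild-type mice the log2 ratio of 5p to 3p for miR-342 was -4.34 ± 0.14 in cerebellum and -5.03 ± 0.09 in striatum (SD, n = 6 each), a difference of 0.69 (two-sided exact permutation test, p = 0.00216, the smallest it allows, adjusted p = 0.00371 over 12 tests). miR-339 also differed, at -1.59 ± 0.18 in cerebellum and -0.98 ± 0.16 in striatum, a difference of -0.62 with the same exact p and adjusted p. Paired by library number, both differences had 1 sign in 6 of 6 pairs (exact sign-flip permutation test, p = 0.0312, the smallest it allows with 6 pairs, adjusted p = 0.0833 over 12 tests). With 5 or 6 pairs per test no adjusted p under 0.05 was possible, so the paired test cannot decide whether these calls hold. miR-340 had 8.40 ± 0.23 in cerebellum and 8.34 ± 0.31 in striatum (exact permutation test, adjusted p = 0.734), and miR-186 had 7.25 ± 0.24 and 7.45 ± 0.35 (exact permutation test, adjusted p = 0.302). In naive wild-type cortex the ratios were -4.56 ± 0.15 for miR-342, -2.27 ± 0.45 for miR-339, 7.07 ± 0.27 for miR-340 and 9.57 ± 1.76 for miR-186, whose 3p arm was listed at 0 in 3 of 5 libraries.

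In striatum 0 of 16 arm ratio tests over genotype and crush passed an adjusted p of 0.05 (exact permutation tests). The lowest adjusted p was 0.0693, for miR-186 at 9.42 ± 2.15 in Thap1+/- crush and 6.87 ± 0.25 in wild-type crush (SD, n = 6 each, exact permutation p = 0.00433). This rests on the 3 libraries listed at 0 for miR-186-3p. For miR-342 the same comparison gave -4.78 ± 0.26 in Thap1+/- crush and -4.84 ± 0.23 in wild-type crush.

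In cortex and cerebellum the ratios are a description. The miR-339 ratio in cortex averaged -1.33 ± 0.46 in Thap1+/- crush, -1.40 ± 0.34 in Thap1+/- naive, -1.003 ± 0.17 in wild-type crush and -2.27 ± 0.45 in wild-type naive, so its 5p share of summed counts was 29.2%, 27.8%, 33.4% and 17.7%. The miR-342 ratio in cerebellum averaged -3.35 ± 0.45 in Thap1+/- crush, -4.19 ± 0.15 in Thap1+/- naive, -4.21 ± 0.34 in wild-type crush and -4.34 ± 0.14 in wild-type naive, with a 5p share of 8.67%, 5.20%, 4.87% and 4.70%. The miR-340 5p arm took 99.3 to 99.7% of the summed counts in every group. The miR-186 5p arm took 99.2 to 99.8%.

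**Figure D5:**
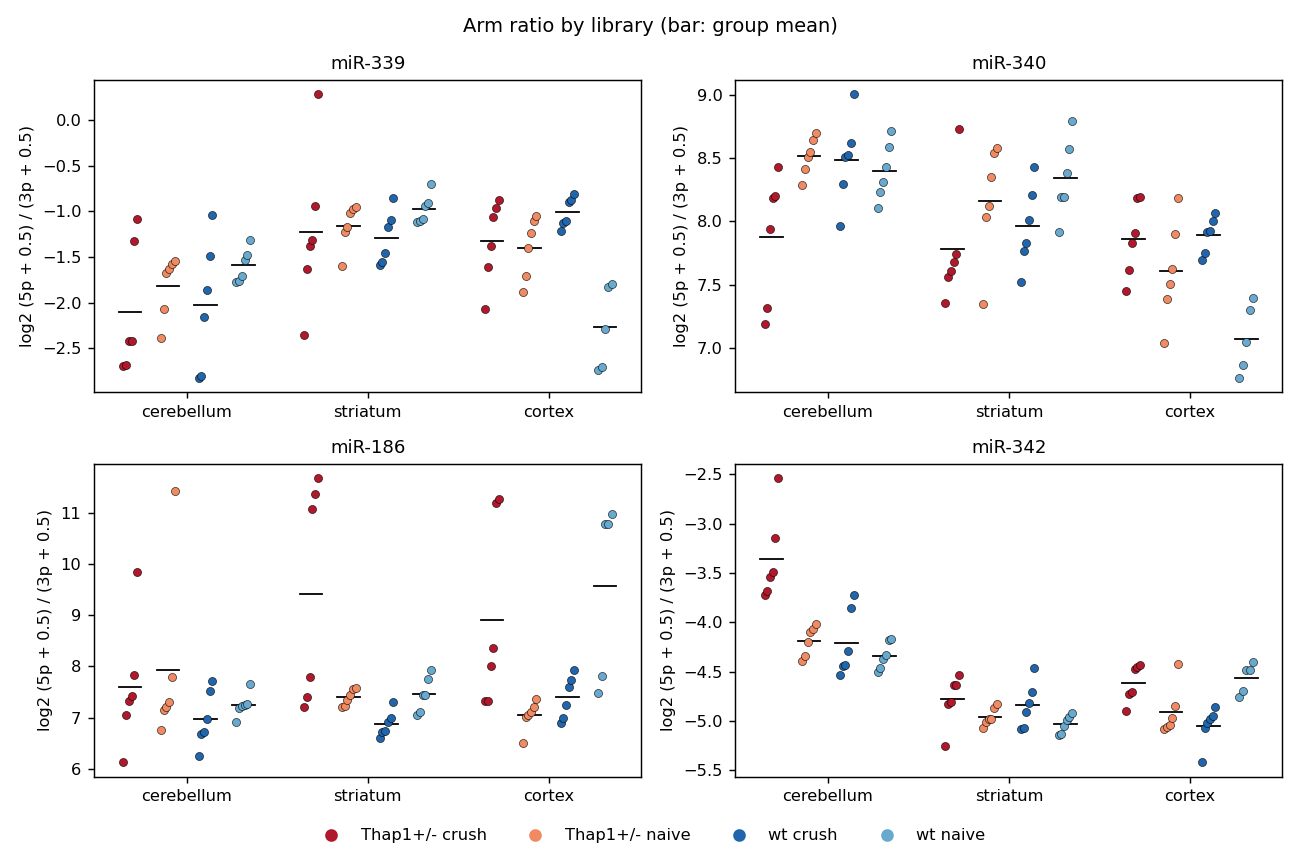
Log2 ratio of 5p to 3p counts per library for miR-339, miR-340, miR-186 and miR-342 in the 12 groups, each point a library and the bar the group mean. In cerebellum the Thap1+/- crush mean of miR-342, -3.35, is above those of the other cerebellum groups, and in cortex the wild-type naive mean of miR-339, -2.27, is the lowest.

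Over the 71 libraries, with each region's mean removed, the members fell into patterns that a description of Pearson's r over 242 candidate miRNAs can name. These points share library, depth and base composition, and carry no p. miR-340-5p was most like miR-9-3p (r = 0.93), miR-29b-3p (0.86) and the miR-101 group (0.85), with 31.8%, 34.8% and 33.3% G and C. miR-186-5p was most like miR-30b-5p (0.87), miR-194-5p (0.85) and miR-107-5p (0.84). miR-342-5p was most like miR-505-5p (0.95), miR-1981-5p (0.94) and miR-423-5p (0.92), and miR-342-3p most like miR-150-5p (0.91), miR-99b-5p (0.90) and miR-125a-5p (0.87). miR-191-5p was most like miR-127-3p (0.91), and miR-339-3p most like miR-181c-3p (0.71). Among the members, miR-342-3p and miR-191-5p had r = 0.90, miR-340-5p and miR-186-5p 0.68, and miR-340-5p and miR-342-5p -0.74.

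Of the other miRNA strands listed as intronic, 90 of the 93 with a sequence lay in a protein-coding gene on the same strand. In cortex, 21 of the 83 tested were higher and 10 lower after crush in wild type, beside 35% of all 549 miRNAs called, with a median of 0.16 beside 0.06 over all tested. miR-15b-5p, which lies in Smc4, was among those higher at 0.87 ± 0.19, with 175 ± 20.6 CPM in wild-type crush and 95.6 ± 14.3 in wild-type naive cortex. miR-126a-3p, an endothelial miRNA in Egfl7, was among those lower at -0.38 ± 0.08. For genotype in naive mice 14 were higher and 4 lower, beside 20.2% of all miRNAs called, with a median of 0.07 beside -0.01, and miR-218-5p was called higher in both contrasts at 0.45 ± 0.10 and 0.40 ± 0.10. In cerebellum 4 were higher and 7 lower of 82 for genotype after crush, beside 13.4% of all miRNAs called, and 1 higher and 6 lower for crush in Thap1+/-, beside 5.25%. These counts show nothing particular to intronic miRNAs. miR-218-5p was lower in both, at -0.42 ± 0.08 and -0.40 ± 0.08. In striatum 0 of 85 were called in any contrast by edgeR's quasi-likelihood test.

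The authors' deposited table called 5 members, all higher, for naive Thap1+/- against naive wild-type cortex and 3, all higher, for wild-type crush against naive cortex. It called 4 members in cerebellum for genotype after crush and 4 for crush in Thap1+/-, and in striatum 1, miR-186-5p, for crush in Thap1+/-. These values rest on the same counts, and the share of all miRNAs called there is not given here, so they are no separate support.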

How the data were processed

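Per the labels' protocols, the small RNA libraries were prepared with the QIAseq miRNA chemistry. The deposited tables hold whole-number counts per mature miRNA without normalization, and the submitters' processing notes name featureCounts 1.6.4 and R 4.1.0 for the authors' part. How reads were aligned, to which build, and any use of molecular identifiers is not given in the sources used here. The authors also deposited log2 fold changes with adjusted p-values (DESeq2, going by the headers), read only where named. Beside the counts, the tables hold 284 further columns of per-sample values, normalized going by their names, which were not used. 1 cortex library was not analysed here.

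Libraries were grouped by column name. The sample titles call the libraries of a group biological replicates but name no mice, and column numbers could not be matched to titles. The p-values measure the spread between these libraries, part of which may be technical. The counts were fitted with edgeR 4.0.16 (limma 3.58.1, R 4.3.3): TMM scaling, the filterByExpr filter, all 4 groups of a region in 1 quasi-likelihood fit, two-sided F tests, and Benjamini-Hochberg adjustment over all miRNAs tested (549 in cortex, 575 in striatum, 552 in cerebellum, 579 between regions), with calls at 0.05. An SE was taken as the size of the log2 fold change divided by the root of its F statistic. CPM are counts scaled to a common total after TMM, per region, or over 3 regions where said. Arm ratios are log2 of 5p over 3p counts with 0.5 added to each, compared by exact permutation tests. Intervals and errors cover the spread between libraries, and a member with under 10 counts is limited by counting.

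Library numbers are shared between regions (23 of 24 numbers in all 3), and in naive wild-type mice all 16 same-number pairs deviated together (r of 0.192 to 0.756). Libraries were therefore paired by number across regions. Values for pairs of unlike number are not given here, and whether a number marks 1 mouse was not tested. Within a region the groups share no number. The members and all lists were chosen with earlier results of these data known. Named beside the members were their partner strands, miRNAs of the same seed, up to 4 higher and 4 lower intronic miRNAs per contrast by p with a mean of at least 10 CPM (a few of these are printed), and the 3 most alike miRNAs per member. The contrasts against cortex between regions were fitted as planned but are printed without p, since they share libraries with the choice of members. Alternatives were median-of-ratios scaling, DESeq2 1.42.0, no filter, no let-7 and miR-98, 2 groups alone, each library left out and, added after the data were seen, a base-composition offset, pairs of libraries left out and a paired exact test of the arm ratios. Sequences are RefSeq. Figures were drawn with matplotlib 3.10.9. The fits were checked on simulated counts.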

Additional observations from a re-analysis of the deposited data

Results flagged for a closer look

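A library far from the others of its group was found in 8 of 120 sets of a member and a group, where chance gives about 1 in 20. STR_DYT6KO_crush_8, which stands apart in all miRNAs, had 67.1 CPM of miR-339-3p and 1819 CPM of miR-340-5p, the highest of Thap1+/- crush striatum, and 9.91 CPM of miR-342-5p, the lowest. In the same group STR_DYT6KO_crush_86 had 39.7 CPM of miR-339-5p, far above the others. In cortex of naive Thap1+/- mice, CX_DYT6KO_naive_16 had 57.3 CPM of miR-339-3p, the highest, and CX_DYT6KO_naive_18 had 105 CPM of miR-186-5p, the lowest. STR_DYT6KO_naive_63 had 6.23 CPM of miR-340-3p and STR_wt_crush_2 had 18.5 CPM of miR-326-3p, each the highest of its group.

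The effect of the crush in cortex differed between Thap1+/- and wild type, past the threshold over all miRNAs, by -1.42 on the log2 scale for miR-339-5p, -3.06 for miR-186-3p and -1.02 for miR-326-3p. These contrasts served to choose the members, and the naive wild-type group enters each of them. The part of that group's composition in these differences was not tested.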

How the results depend on the processing

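No called value of a member changed sign under any alternative. In cortex, genotype in naive mice gave 0 called members with the 2 groups fitted alone (5 in the fit of all groups), where 0 of all miRNAs were called. Crush in Thap1+/- (0 members, with 2 of all miRNAs higher and 2 lower) gave 1 with DESeq2, where 5 of all were higher and 9 lower. It gave 1 without CX_DYT6KO_naive_16 and CX_DYT6KO_naive_18, where 7 of all were higher and 18 lower. The difference of crush effects gave 6 without those 2 libraries (3 with all libraries). Calls over all miRNAs then moved to 86 higher and 121 lower, against 31 and 43 with all libraries. In striatum DESeq2 gave 1 member for genotype after crush, where it called 0 higher and 1 lower of all miRNAs. For crush in Thap1+/- it gave 1 member, where it called 5 higher and 7 lower of all. The edgeR fit gave 0 members in each. In cerebellum, genotype after crush gave 4 members in the fit of all groups, beside 24 higher and 50 lower of all miRNAs. It gave 2 with median-of-ratios scaling (26 and 26 of all), 2 without a filter (13 and 18) and 2 without let-7 and miR-98 (23 and 23). With 2 groups alone it gave 1 (2 and 4), and without CB_DYT6KO_crush_47 and CB_DYT6KO_crush_86 it gave 1 (1 and 9). Crush in Thap1+/- gave 4 members, beside 7 higher and 22 lower of all miRNAs. That count was 2 without a filter (2 and 9) and 1 without those 2 libraries (0 and 4). Striatum against cortex gave 5 with all libraries in 1 fit (8). The cause of these was not tested. With each library left out in turn, counts ran from 3 to 7 for genotype in naive cortex, 3 to 5 for crush in wild-type cortex, 0 to 1 for crush in Thap1+/- cortex, 2 to 6 for the cortex difference, 2 to 3 for genotype after crush and 1 to 4 for crush in Thap1+/- in cerebellum, 0 to 0 in every striatum contrast, and 0 to 1 for striatum arm ratios. Calls over all miRNAs with 1 library left out are not given here, so these counts show nothing particular to the members. The libraries behind the lowest counts are named with the results. Without CX_DYT6KO_naive_18 the cortex difference had 6 and crush in Thap1+/- 1, and without STR_DYT6KO_crush_86 1 striatum arm ratio passed. With library number as a replicate block the region counts were 8, 7 and 6, as without it, and no member's call changed. Paired by library number, 0 of 12 region arm ratios passed (10 unpaired), and with 5 or 6 pairs the smallest p is 0.0625 or 0.0312, so this says nothing about stability. Counts of 0 to 16 limit miR-186-3p.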
